A study of Homo sapiens with 6 samples.

Results

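The genes described here run the synthesis of cholesterol and the response of a cell to its own sterol content, in K562 cells that were sensitive or resistant to methotrexate (MTX). A list of 29 genes was taken, made of 19 genes of the synthesis pathway, 4 regulators, 4 genes of uptake, transport and storage, and 2 of efflux. A probe set, which is the group of oligonucleotides that reports 1 transcript on the array, was a member when its annotation names a listed gene, and 69 of the 54675 probe sets of the array were members. They cover 28 of the 29 genes, and FDFT1, which encodes squalene synthase, is not analysed here.

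K562 is an erythroblastic leukemia cell line, and MTX is an inhibitor of dihydrofolate reductase. The parental group held 3 arrays of MTX-sensitive K562 cells, grown in Ham's F12 medium with fetal bovine serum. The resistant group held 3 arrays of cells that had been selected with stepwise MTX concentrations and are labelled as resistant to 10e-5 M MTX. That notation is uncertain by a factor of 10, and the study's methods give the lower reading. The resistant cells were kept in dialyzed serum and a medium that lacks thymidine, hypoxanthine and glycine. Medium, serum and resistance therefore changed together and cannot be told apart, and the labels name neither a clone nor separate cultures, so that p-values measure only the spread between these samples, which may be technical.

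Cholesterol is built from acetyl-CoA through mevalonate, the isoprenoid diphosphates, squalene and lanosterol. When sterols run low in the endoplasmic reticulum, SCAP carries the SREBP transcription factors, the products of SREBF1 and SREBF2, to the Golgi, where they are cut and released to activate the synthesis genes, and INSIG1 holds SCAP back when sterols are plentiful. Cells also take up cholesterol with lipoproteins, move it between membranes with carriers such as STARD4, store it as esters through SOAT1 and export it through ABCA1 and ABCG1, which are induced by oxysterols through the LXR receptors.

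Promoter sequence is shown for the 4 genes on which the values or the motif search below turn, STARD4, LSS, NSDHL and SREBF2. Each run is the 250 bases before the start of the gene, read 5′ to 3′ on the strand of the gene, from RefSeq on GRCh38.p14. Capitals mark the letters TCACNCCAC (the core of the sterol element bound by SREBPs), CCAAT (the NF-Y box) and GGGCGG (the Sp1 box) on either strand, so that ATTGG and CCGCCC are the reverse forms of the last pair.
STARD4, chr5:111512536-111512785, minus strand: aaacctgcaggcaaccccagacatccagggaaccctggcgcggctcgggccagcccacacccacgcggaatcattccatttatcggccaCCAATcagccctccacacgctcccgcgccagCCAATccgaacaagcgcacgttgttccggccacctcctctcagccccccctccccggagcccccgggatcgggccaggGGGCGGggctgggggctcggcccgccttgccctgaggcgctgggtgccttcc
LSS, chr21:46228775-46229024, minus strand: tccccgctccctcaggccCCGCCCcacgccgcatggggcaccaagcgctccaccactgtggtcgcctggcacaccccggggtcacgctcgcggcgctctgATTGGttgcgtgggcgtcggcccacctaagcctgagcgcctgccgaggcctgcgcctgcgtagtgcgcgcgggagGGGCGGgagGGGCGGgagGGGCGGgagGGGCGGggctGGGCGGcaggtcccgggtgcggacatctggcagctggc
NSDHL, chrX:152830813-152831062, plus strand: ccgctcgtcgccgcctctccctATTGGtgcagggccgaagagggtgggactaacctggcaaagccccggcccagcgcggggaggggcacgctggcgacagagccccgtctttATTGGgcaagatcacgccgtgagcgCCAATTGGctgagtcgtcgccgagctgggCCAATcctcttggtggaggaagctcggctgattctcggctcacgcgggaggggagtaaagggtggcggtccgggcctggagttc
SREBF2, chr22:41832855-41833104, plus strand: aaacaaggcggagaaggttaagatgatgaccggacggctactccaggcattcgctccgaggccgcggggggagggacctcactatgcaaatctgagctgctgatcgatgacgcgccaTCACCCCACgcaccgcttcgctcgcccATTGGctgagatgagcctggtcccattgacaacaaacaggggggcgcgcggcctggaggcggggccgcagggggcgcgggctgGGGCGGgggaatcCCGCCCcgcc

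STARD4 held 2 CCAAT boxes, 161 and 130 bases before the start, and 1 GGGCGG box at 52 bases. LSS held 1 CCAAT box and 6 GGGCGG boxes, 4 of which repeat at intervals from 75 to 48 bases before the start. NSDHL held 5 matches to CCAAT, 2 of them overlapping on opposite strands in the run CCAATTGG, and no GGGCGG box. The sterol element core was found in SREBF2, 133 bases before its start and near a CCAAT box at 106 bases. Over windows that run from 250 bases before to 50 bases after the start, 25 of the member genes matched 32 windows, and ACAT2, FDFT1, SQLE and ABCG1 matched none. Of these windows 65.62% held CCAAT, against 34.61% of all 35116 RefSeq windows, and 90.62% held GGGCGG, against 44.95%. The sterol element core was found in 1 of the 32 windows, which is 3.12%, against 1.13% of all. The comparison windows were not limited to genes tested here, and some member genes gave several windows, which can overlap. The shares are therefore not read as particular to sterol genes. These matches describe letters and no bound site.

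Values are signals divided by the median of their array, and a difference is the resistant mean minus the parental mean on the log2 scale. A probe set was tested when the mean of its scaled signal reached 1. This kept 57 of the 69 member probe sets, of 27 genes. A probe set was called when the limma adjusted p was under 0.05 over all 26692 tested probe sets and the fold was at least 2. For groups, each gene was represented by its tested probe set of the highest mean level that names 1 gene, which gave 26 member genes of 11810 genes in all. The pair of CYP51A1 probe sets also name LRRD1 and stand outside the groups.

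Parental 1 and resistant 3 stood apart from the other arrays. Spearman correlations over all probe sets were 0.856 and 0.849 between parental 1 and the other parental arrays, which correlated at 0.882 with each other. The summed level of the 11 epithelial markers with a probe set, of which 8 averaged 1 or more, was 646.64 on parental 1, 339.82 and 274.54 on the other parental arrays, and from 224.07 to 308.83 on the resistant arrays. KRT18, KRT8 and KRT19 made up most of this sum, with 352.07, 166.44 and 83.69 on parental 1, and KRT18 remained at 162.62 to 195.89 on resistant arrays. EPCAM was at 9.53, 1.19 and 0.31 on parental 1 to 3, whereas KRT7 was at 2.36, 3.20 and 3.18. The ratio of the 3′ to the 5′ probe set of the actin control was 2.01 on resistant 3 and from 1.19 to 1.501 on the others, and that of GAPDH was 1.28 against 0.99 to 1.08. The 7 of 10 erythroid markers with a probe set all averaged 1 or more and summed to 1081.9 to 1216.56 on parental and 1064.36 to 1287.54 on resistant arrays. HBZ made up most of this sum, at 551.33 to 652.69 and 620.29 to 713.82, so that it says little of the other markers. Of the 7, 4 were lower and 3 higher in resistant cells and 0 were called. Their log2 differences ran from -0.82 for GATA1 to 0.56 for KLF1. The 6 fibroblast markers, of which 2 averaged 1 or more, summed to 7.37 to 8.73 and 6.60 to 8.87. The 5 lymphoid markers with a probe set, of which 2 averaged 1 or more, summed to 35.73 to 52.14 and 3.37 to 4.23. CD3D made up most of this difference, with 50.34, 31.91 and 35.19 on the parental arrays and 0.92, 2.14 and 0.08 on the resistant arrays. In bulk RNA, fewer cells of a type and less RNA per cell cannot be told apart.

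STARD4, the cytosolic carrier that moves cholesterol between membranes, was the 1 member called, and it fell in resistant cells. Among all tested probe sets 1.14% were called lower and 1.2% higher, and among the 57 of the members 1 was called lower and 0 higher. Resistant arrays lay all below parental arrays for 11 of the 57, where 12.3% of all tested probe sets did so, and all above for 1, where 14.9% did. Of the 11, the dimmer NPC1 probe set passed the level filter only through the group where it is high. An unadjusted p under 0.05 was found for 8 of the 57, that NPC1 probe set among them. This was 14%, against 18.7% of all tested probe sets. These shares are near each other, and neither an excess nor a lack among the members is read from them. Differences below 0 were found for 43 of the 57 and above 0 for 14. The 43 include that NPC1 probe set and the dimmest LSS probe set, and the 14 include the ABCG1 probe set. Each of these passed the level filter only through the group where it is high. Several of the 57 report the same gene, and the share below 0 over all tested probe sets was not taken. With 1 representative per gene, 20 of 26 member genes were lower, beside 48.56% of all 11810 tested genes. Over all tested probe sets 51.29% of the calls were higher in resistant cells, and with the values as deposited, without scaling of arrays, 39.55% were.

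**Figure D1:**
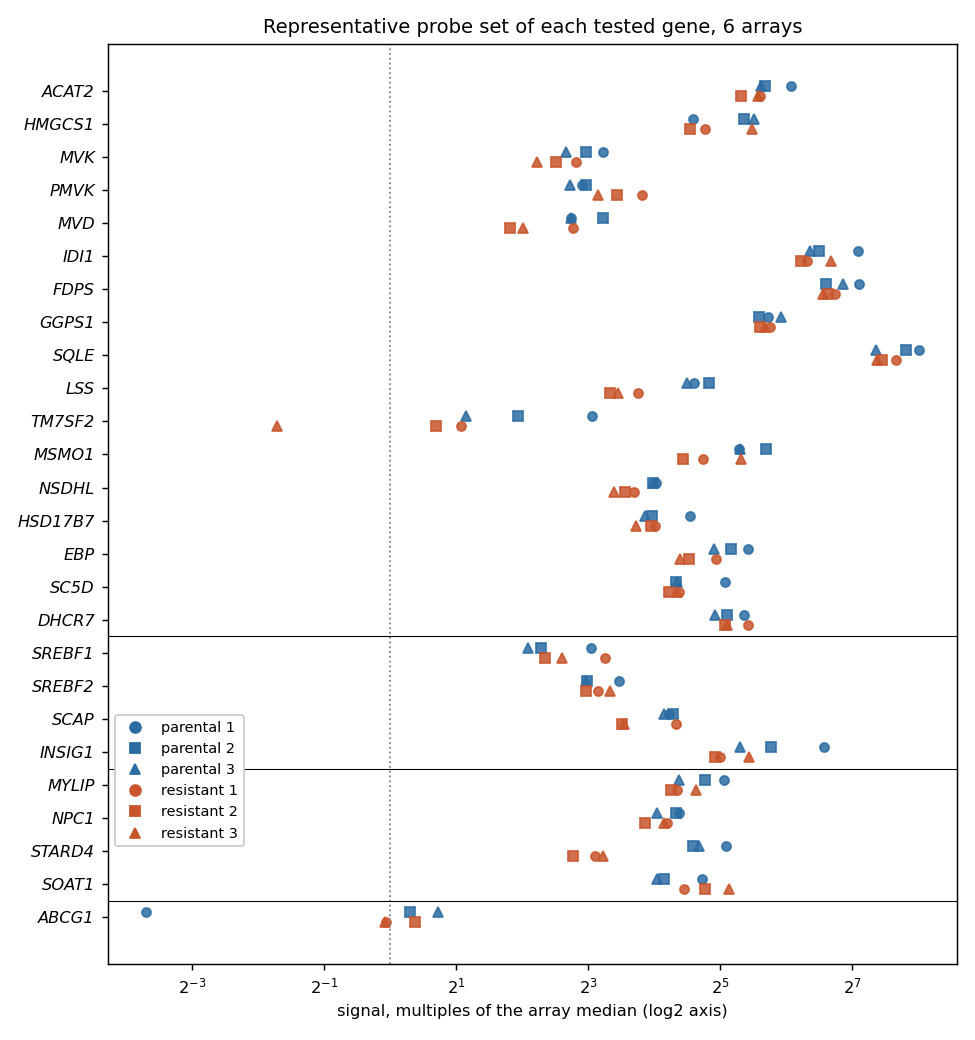
Signal of the representative probe set of each of the 26 tested genes relative to the median of its array (log2 axis), with 1 symbol per array in blue for parental and orange for resistant cells. Horizontal lines part synthesis, regulators, uptake with transport and storage, and efflux. The groups of STARD4 and LSS are set well apart, whereas those of most other genes overlap.

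The enzymes of the pathway lay lower in resistant cells for 15 of the 17 tested genes, of which 0 were called. Their median difference was -0.27, with a range from -2.03 for TM7SF2 to 0.60 for PMVK, and the median over all tested genes was 0.02, with 48.56% of genes lower. The resistant arrays lay all below the parental arrays for 4 of them (ACAT2, LSS, TM7SF2 and NSDHL) and all above for 1 (PMVK). Over all tested genes, 14.2% lay all below and 16.1% all above.

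The early enzymes make the isoprenoid diphosphates. ACAT2, which joins acetyl-CoA units, differed by -0.30, and HMGCS1, which makes HMG-CoA, by -0.23. The kinase MVK differed by -0.43 and the decarboxylase MVD by -0.71, without passing the test (limma adjusted p = 0.423 and 0.301). IDI1, the isomerase of isopentenyl diphosphate, differed by -0.24, FDPS, which makes farnesyl diphosphate, by -0.21, and GGPS1, which turns it toward protein prenylation, by -0.07. This run of genes, split off after the values were seen, had a median of -0.24 over 8 genes.

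PMVK, which adds the next phosphate to phosphomevalonate, was the exception among them. Its signal (probe set 203515_s_at) was 7.49, 7.79 and 6.61 on the parental arrays and 14.07, 10.83 and 8.88 on the resistant arrays. All resistant arrays lay above all parental arrays. The difference of 0.60 (SE 0.25, 95% interval 0.02 to 1.19) had a limma adjusted p of 0.256 and was not called.

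The enzymes from squalene on had a median difference of -0.45 over 9 tested genes, by the same later split, and 8 of them were lower. LSS, lanosterol synthase, closes squalene epoxide into the first sterol. Its representative probe set (202245_at) measured 24.32, 28.59 and 22.54 on the parental arrays against 13.54, 10.11 and 11.01 on the resistant arrays. The lowest parental array was well above the highest resistant array. The difference was -1.13 (SE 0.22, 95% interval -1.66 to -0.59), a 2.18-fold lower signal, with a limma adjusted p of 0.0634.

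Probe set 211019_s_at of LSS measured 3.46, 6.01 and 5.95 on the parental and 2.77, 2.31 and 1.79 on the resistant arrays, a difference of -1.14 (limma adjusted p = 0.126). The groups did not overlap, and parental 1 lay nearest to the resistant arrays. Probe set 211018_at measured 0.71, 3.51 and 3.25 against 0.68, 0.72 and 0.99, so that parental 1 fell among the resistant arrays. It passed the level filter only through the parental group, and its difference, called when parental 1 was left out, is not used.

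Whether LSS was called depended on the setting. The representative LSS probe set was called under quantile normalization (adjusted p = 0.0324), 75th percentile scaling (0.0461), a level filter at 2 array medians (0.0336), pseudocounts of 0.25 and 1 (0.0463 and 0.0239) and limma with an intensity trend and robust prior (0.0177). It was not called with values as deposited (0.0647), without shared-sequence probe sets (0.0668), by the methods' t-test (0.101), with a replicate block (0.170), without a level filter (0.263), without parental 1 and resistant 3 together (0.105), or without any single array (0.0721 to 0.226). Its difference ran from -1.33 to -1.03 over these settings.

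NSDHL, a dehydrogenase that helps strip methyl groups from sterols, is given here in full although its choice was made after its values were seen. Its representative (209279_s_at) measured 16.31, 15.81 and 15.82 on parental arrays and 12.96, 11.78 and 10.45 on resistant arrays, a difference of -0.45 (limma adjusted p = 0.291). Its other probe set (215093_at) measured 12.76, 11.80 and 10.92 against 6.43, 6.27 and 7.23, a difference of -0.83 (SE 0.20, limma adjusted p = 0.0962). On both, the groups did not overlap, and neither was called.

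TM7SF2, a sterol reductase, had the most negative difference of the representatives, and it rested in part on 1 array. It measured 8.30, 3.85 and 2.23 on parental arrays and 2.10, 1.62 and 0.30 on resistant arrays (probe set 210130_s_at). The gap between the nearest arrays, parental 3 and resistant 1, was small, and resistant 3 lay below the array median. The difference of -2.03 had a 95% interval from -4.01 to -0.06 and a limma adjusted p of 0.255. It was -1.17 without resistant 3, -0.67 without parental 1 and resistant 3, and -1.26 with a pseudocount of 1, so that the size is not settled.

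The remaining late enzymes were not called. SQLE, the epoxidase that acts on squalene, differed by -0.24, MSMO1, which oxidizes sterol methyl groups, by -0.60, and HSD17B7, a ketosterol reductase, by -0.23. EBP, a sterol isomerase, differed by -0.54, and the desaturase SC5D by -0.27. DHCR7, the reductase of the last step, differed by 0.07 (95% interval -0.48 to 0.62). The 2 probe sets that name CYP51A1, lanosterol demethylase, together with LRRD1 differed by -0.62 and -0.64 (limma adjusted p = 0.344 and 0.386).

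**Figure D2:**
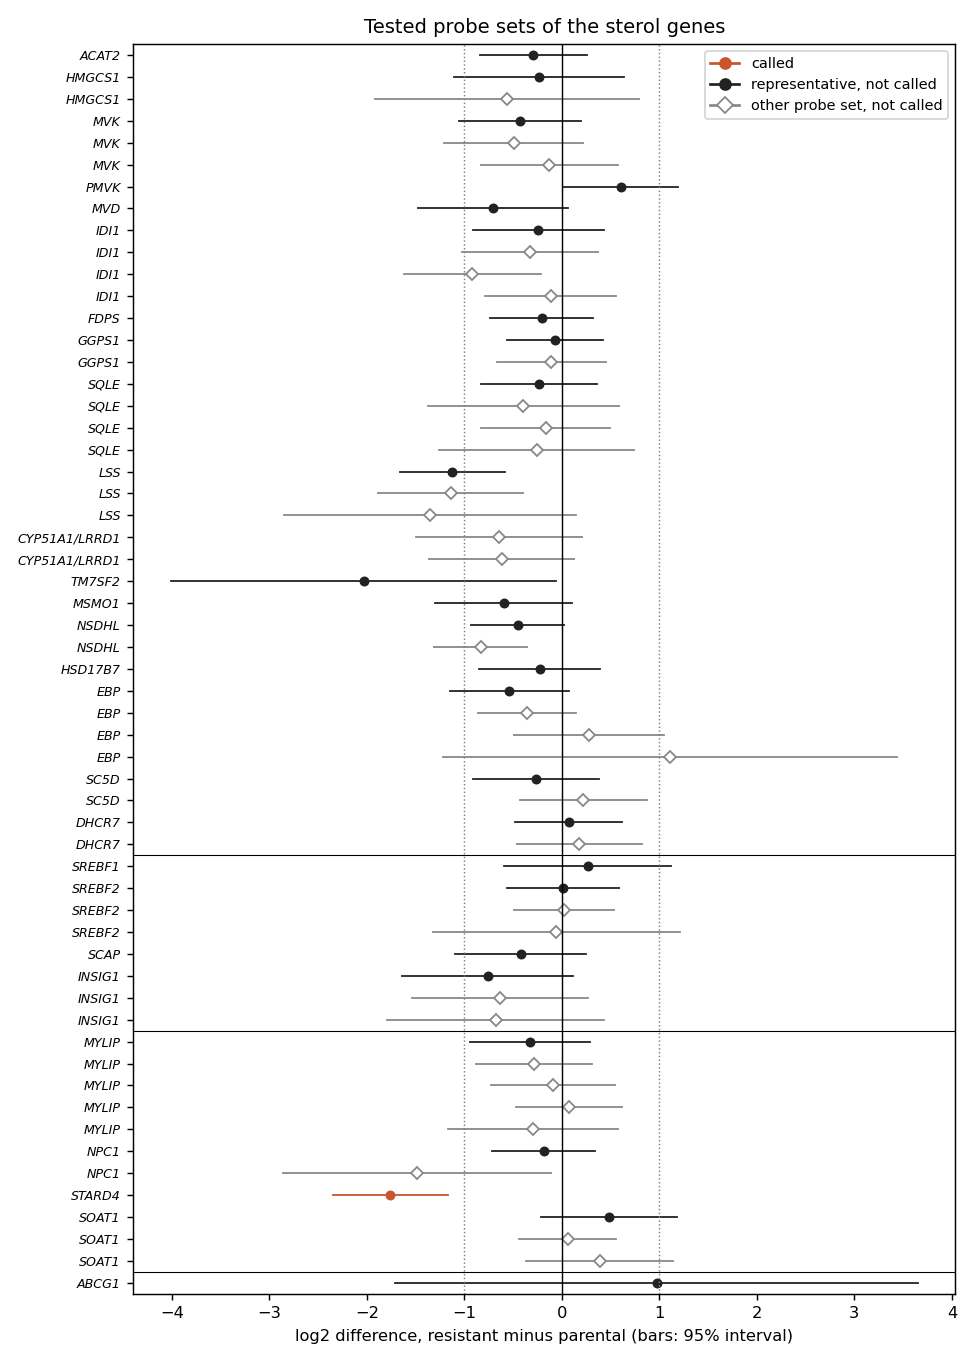
Difference between resistant and parental arrays for each of the 57 tested member probe sets on the log2 scale, with 95% intervals from limma, a solid line at 0 and dotted lines at a fold of 2. The 1 called probe set, STARD4 at -1.76, is in orange, filled points are representatives and open diamonds the other probe sets, most of which lie left of 0 with intervals that reach it.

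Of the regulators, 2 were lower and 2 higher and 0 were called, with a median difference of -0.21. SREBF1 measured 8.22, 4.90 and 4.26 on parental and 9.52, 5.11 and 6.09 on resistant arrays (202308_at), a difference of 0.26 (95% interval -0.60 to 1.12, limma adjusted p = 0.735). SREBF2 measured 11.03, 7.93 and 7.82 against 8.87, 7.85 and 10.09 (201247_at), a difference of 0.01 (95% interval -0.56 to 0.59, limma adjusted p = 0.985). For both, parental 1 was the highest parental array and the groups overlapped. The sign for SREBF2 turned with the scaling, to -0.0028 after quantile normalization and -0.19 with values as deposited.

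SCAP measured 18.70, 19.56 and 17.81 on parental arrays and 20.17, 11.46 and 11.70 on resistant arrays (212329_at). Resistant 1 was above all parental arrays and the other resistant arrays below them. The difference was -0.42 (95% interval -1.10 to 0.25, limma adjusted p = 0.466).

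INSIG1, itself a target of the SREBPs, measured 95.57, 54.60 and 39.59 on parental arrays and 32.15, 30.21 and 43.61 on resistant arrays (201626_at). Parental 1 was far above the others, and resistant 3 exceeded parental 3. The difference was -0.76 (95% interval -1.64 to 0.12, limma adjusted p = 0.327), and its other probe sets differed by -0.68 and -0.64. Without parental 1 these became -0.42, -0.28 and -0.26, and without parental 1 and resistant 3 together -0.58, 0.050 and -0.16, so that the sign of 1 of the 3 turned.

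Among the genes of uptake, transport and storage, 3 of 4 were lower and STARD4 alone was called, with a group median of -0.26. STARD4, by its only probe set (226390_at), measured 34.25, 24.10 and 25.69 on the parental arrays and 8.59, 6.80 and 9.34 on the resistant arrays. The lowest parental array was more than double the highest resistant one. The mean was 28.0 ± 5.46 (SD, n = 3) in parental and 8.25 ± 1.31 (SD, n = 3) in resistant cells. STARD4 fell by 1.76 on the log2 scale (SE 0.25), which is 3.39-fold (95% interval 2.25 to 5.10), with a limma adjusted p of 0.0218.

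The size of the STARD4 difference held when arrays were left out, from -1.86 to -1.61, while its limma adjusted p ran from 0.0282 to 0.0955 and stayed under the threshold only when parental 1 was the array left out. It was 0.0763 without parental 2, 0.0729 without parental 3, 0.0768 without resistant 1, 0.0955 without resistant 2 and 0.0549 without resistant 3. Without parental 1 and resistant 3 together, the difference was -1.70 and the adjusted p 0.0369. The call was also lost without a level filter (adjusted p = 0.123), by the methods' t-test (0.0748) and with a replicate block (0.0745).

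MYLIP, the ubiquitin ligase that sends lipoprotein receptors to degradation, differed by -0.33 (limma adjusted p = 0.536). NPC1, which lets cholesterol leave the lysosome, differed by -0.19 (95% interval -0.71 to 0.34). SOAT1, which esterifies cholesterol for storage, differed by 0.48 (95% interval -0.22 to 1.18). On these 3 representatives the parental and resistant arrays overlapped. A dimmer NPC1 probe set (217584_at) measured 1.94, 0.97 and 2.03 on parental and 0.74, 0.96 and 0.25 on resistant arrays, without overlap and not called (limma adjusted p = 0.233). It passed the level filter only through the parental group, so its difference is not used.

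The efflux pumps gave little signal. All 4 probe sets of ABCA1 averaged below the array median, from 0.25 to 0.94 by group, and were not tested. Of the 4 probe sets of ABCG1, 1 was tested (211113_s_at), at 0.08, 1.24 and 1.65 on parental and 0.96, 1.30 and 0.95 on resistant arrays. Parental 1 lay far below all others, so that the difference of 0.97 (95% interval -1.71 to 3.65, limma adjusted p = 0.681) turned to -0.43 without it. No detection calls were used here, so it is not known how far values near the array median exceed background, and no direction is given for efflux.

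The intervals show how much change the arrays could have missed. For 12 of the 26 representatives the 95% interval lay between -1 and 1, which leaves out a fold of 2 either way. For 11 it reached -1 or lower, STARD4 and LSS among them, and for 4 it reached 1 or higher.

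The level of the groups varied within the parental cells as well. Against the parental mean, the median of the synthesis genes was 0.25, -0.02 and -0.18 on parental 1 to 3 and -0.19, -0.44 and -0.29 on resistant 1 to 3. Resistant arrays were all below parental arrays, with parental 3 and resistant 1 almost level. The regulators gave 0.44, -0.13 and -0.28 on parental and 0.06, -0.44 and -0.15 on resistant arrays, and the genes of uptake, transport and storage 0.31, -0.06 and -0.23 against -0.23, -0.44 and -0.11. In both of these groups the arrays overlapped. The medians over all tested genes were 0.06, 0.04 and -0.08, and 0.16, -0.07 and 0.01.

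**Figure D3:**
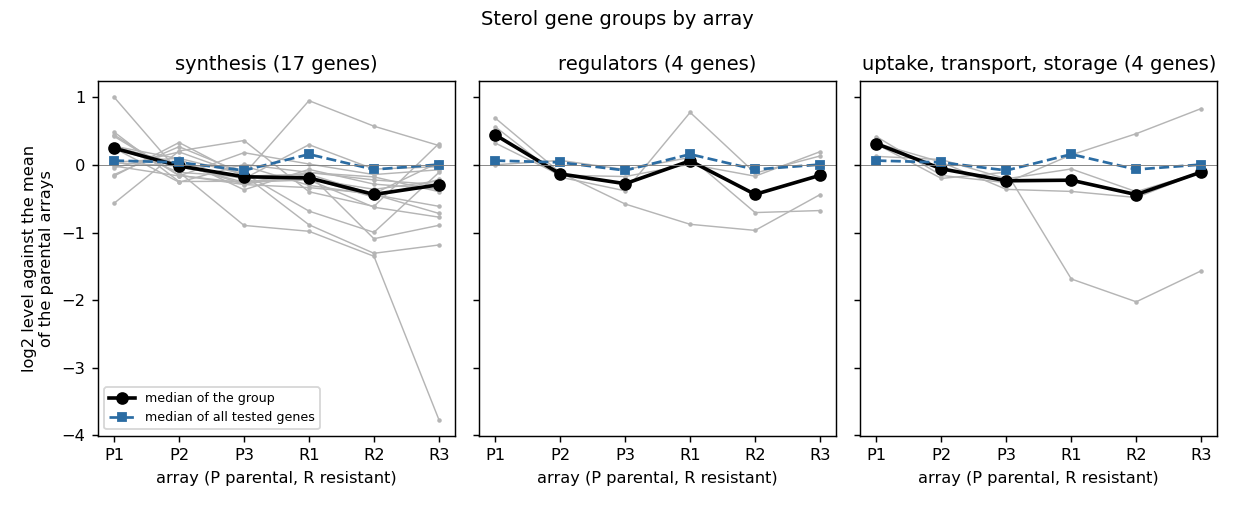
Level of each gene (thin grey lines) against the mean of the parental arrays on the log2 scale, for synthesis, regulators, and uptake with transport and storage, with the group median in black and the median of all tested genes in blue. Lines only join the values of 1 gene, since arrays have no order, and the synthesis median runs from 0.25 on parental 1 to -0.44 on resistant 2.

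Parental 1 read high for most of these genes. It was above the mean of the other parental arrays for 20 of 26 member genes, with a median difference of 0.40. Among all tested genes 6666 of 11810 were above it, with a median of 0.10. Without parental 1 the median resistant difference of the synthesis genes was -0.15, of the regulators -0.16 and of uptake, transport and storage -0.15, beside 0.04 for all tested genes. Without parental 1 and resistant 3 together these medians were -0.16, -0.13, -0.22 and 0.05. Over the same probe sets, 15 of the 17 synthesis genes were lower without parental 1, 15 without resistant 3 and 14 without both, where 47.00%, 47.03% and 45.55% of all tested genes were lower. Of the 8 tested epithelial markers, 7 were also above the mean of the other parental arrays on parental 1. Beyond the values without parental 1, the part of these markers in the group medians was not tested.

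Probe sets of 1 gene parted on resistant 3, and some also parted on parental 1. On parental 1, against the mean of parental 2 and 3, those of SREBF2 differed by 0.49, 0.23 and -1.75 on log2. Those of SOAT1 differed there by 0.63, 0.13 and -0.49. On resistant 3, against the mean of resistant 1 and 2, HMGCS1 was 0.82 higher on log2 by its representative. By its other probe set HMGCS1 differed by -0.97. For CYP51A1 with LRRD1 the values were 0.71 and -1.12, for INSIG1 0.48, -0.29 and -1.004, and for IDI1 0.72, 0.42, -0.06 and -0.74. Of the 16 genes with several tested probe sets, 6 spread by more than 1 on this measure, EBP and NPC1 being the others. The NPC1 spread rests on its dimmer probe set, which passed the level filter only through the parental group, so it is not used. How many genes spread this far on the other arrays, or among all genes with several probe sets, was not counted. Over all tested probe sets the median was -0.09 and the 10th and 90th percentiles were -1.04 and 0.58. HMGCS1 shows how far this reaches, with 24.16, 41.31 and 45.97 on parental and 27.19, 23.38 and 44.56 on resistant arrays for 221750_at, and 7.78, 13.21 and 29.89 against 15.89, 9.58 and 6.29 for 205822_s_at. Resistant 3 was the highest resistant array by one probe set and the lowest by the other. The 3′ to 5′ control ratios above moved with this array, and their part in the spread of probe sets was not tested. STARD4 and the representative LSS probe set lay below all parental arrays on each of the resistant arrays.

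**Figure D4:**
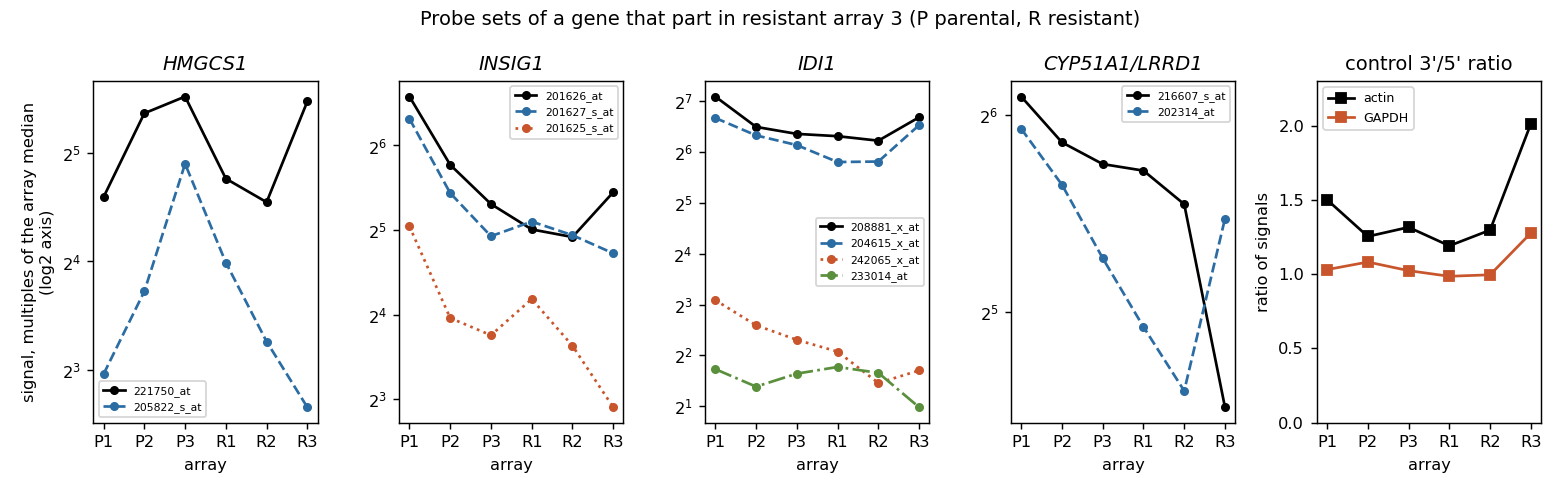
Signal of each tested probe set of 4 genes, chosen after their values were seen, relative to the median of its array (log2 axes) for parental (P) and resistant (R) arrays, and the 3′ to 5′ ratios of the actin and GAPDH controls on a linear axis. On R3 the probe sets of HMGCS1, INSIG1, IDI1 and CYP51A1 with LRRD1 part, and both control ratios are at their highest, 2.01 and 1.28.

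Other genes that sense or use sterols and isoprenoids were read from the same fit. Of 40 tested genes outside the members, 1 was called. TMEM97, a membrane protein of the endoplasmic reticulum that binds NPC1, rose from 45.33, 30.28 and 31.49 on parental to 106.97, 87.37 and 124.39 on resistant arrays (212282_at). The difference was 1.58 (SE 0.26), a 3.00-fold rise (limma adjusted p = 0.0369), and 2 of its 4 probe sets were called. The call held without parental 1 (adjusted p = 0.0227) and without parental 1 and resistant 3 together (0.0368). It was lost without parental 2 (0.149), parental 3 (0.124), resistant 1 (0.12), resistant 2 (0.0977) or resistant 3 (0.105), where the difference ran from 1.46 to 1.72. It was also lost with values as deposited (0.0725), without a level filter (0.165), by the methods' t-test (0.105) and with a replicate block (0.0988).

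In the sensing list TMEM97 was the 1 called of 8 tested genes. Of 4 LXR genes, 6 of uptake and storage, 12 of fatty acid synthesis and 10 of isoprenoid use, 0 were called, beside 1.47% of all tested genes called lower and 1.3% higher, and no gene of oxysterol synthesis was tested. Their median differences were -0.19 for sensing, 0.12 for LXR, -0.08 for uptake and storage, -0.03 for fatty acid synthesis and 0.36 for isoprenoid use. Of the genes not called, ACLY, which makes cytosolic acetyl-CoA, differed by -0.92 (limma adjusted p = 0.103) and ME1, a source of NADPH, by 1.68 (0.126). PDSS2, of the coenzyme Q side chain, differed by 0.75 (0.174). The farnesyltransferase subunit FNTB averaged 1.29 on parental and 0.75 on resistant arrays (0.205) and passed the level filter only through the parental group.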

How the data were processed

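Total RNA of 3 parental and 3 resistant K562 samples was hybridized to Affymetrix HG U133 PLUS 2.0 arrays. The deposited values are intensities, 1 linear signal per probe set, which the authors made with MAS5 (version not given in the sources used here). Array medians differed, so the per-chip scaling to the 50th percentile that the study describes was applied here. Values were floored at 0.01 before log2.

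Probe sets named their genes through the platform annotation: 41097 named 1 gene, 1801 several and 11777 none, and 41043 of the first were matched by gene ID to RefSeq (GRCh38.p14). After 62 manufacturer controls were left out, 26692 probe sets averaged at least 1 array median. This level filter stood in place of the control-strength filter of the study. Its per-gene test was replaced by limma 3.58.1 in R 4.3.3 (lmFit and eBayes, two-sided, Benjamini-Hochberg). The fit was checked on simulated data. The number of arrays limits the precision. Probe sets whose identifiers end in _s_at, _x_at or _a_at, 31 of the 69 members, can share sequence with other transcripts.

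Every member is named. A member was given in full when its representative probe set had an unadjusted p under 0.05 or was called, or when it is a regulator or an efflux gene. Other pathway genes were named when called, with at most 4 more with an unadjusted p under 0.05. The members and the lists were chosen with earlier results of these data known. The alternatives changed the scaling, level filter, pseudocount, variance model, test, replicate block, arrays, probe sets and representative.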

Additional observations from a re-analysis of the deposited data

Results flagged for a closer look

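The 3′ to 5′ signal ratios of the manufacturer controls, which enter no comparison of the sterol genes, were above those of every parental array on resistant 3. The ratio was 2.01 for actin, with 1.25 to 1.501 on parental arrays, and 1.28 for GAPDH, with 1.02 to 1.08.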

How the results depend on the processing

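The median differences of the synthesis genes, the regulators and the genes of uptake, transport and storage stayed below 0 under every alternative run. Changes of the level filter, variance model, test or replicate block left these medians the same, because the representatives and their differences did not change. Those runs therefore do not test the sign. With each array left out in turn, the medians ran from -0.39 to -0.15, from -0.34 to -0.07 and from -0.40 to -0.15, in that order. The synthesis median was -0.47 with values as deposited, where the median of all tested genes was -0.18. The uptake, transport and storage median was -0.51 over the mean of the probe sets of a gene and -0.89 over the probe set of the lowest level. Both values take in the dimmer NPC1 probe set, which passed the level filter only through the parental group, so they are not used.

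Probe sets called higher and lower numbered 319 and 303. They numbered 210 higher with values as deposited, 97 and 77 without a level filter, 455 lower with a pseudocount of 0.25, 599 and 592 with a pseudocount of 1, 563 and 570 with an intensity trend and robust prior, 82 and 44 by the methods' t-test, and 198 and 187 without shared-sequence probe sets. Leaving out 1 array gave 106 to 599 higher and 81 to 426 lower. Of the member probe sets, 2 were called with quantile normalization, 75th percentile scaling, a level filter at 2 array medians, both pseudocounts and the intensity trend, and 0 without a level filter or by the methods' t-test. Leaving out 1 array gave 0 to 2. The 2 arose without parental 1 and were of STARD4 and of LSS. The LSS probe set was 211018_at, which passed the level filter only through the parental group and is not used. Of the other pathway genes, 2 were called with a pseudocount of 1 and with the trend, and 0 with values as deposited, without a level filter or by the methods' t-test. Leaving out 1 array gave 0 to 1. Leaving out parental 1 and resistant 3 together, an alternative chosen after seeing the data, gave 514 higher, 463 lower, 2 member probe sets and 2 other genes. These member probe sets were of STARD4 and LSS, and the representative LSS probe set was not the one called (limma adjusted p = 0.105). The cause of these shifts was not tested.

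Replicate numbers did not pair the samples: same-numbered deviations correlated at -0.007, -0.025 and -0.006. With a replicate block 133 probe sets were called higher and 136 lower, and 0 member probe sets and 0 other pathway genes.

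The sign of 5 small or dim differences turned. SREBF2 was -0.0028 with quantile normalization, -0.19 as deposited, and -0.063, -0.073 and -0.079 without parental 2, parental 3 and resistant 3, with up to 0.17 without parental 1. DHCR7 was -0.13 as deposited, -0.032 without parental 3 and -0.045 without resistant 1, with up to 0.24 without parental 1 and resistant 3. GGPS1 was 0.023 without parental 3. ABCG1 was -0.43 without parental 1, 1.78 without parental 3 and -0.36 without parental 1 and resistant 3, and HSD17B7 was 0.066 without that pair. Signals near the array median limit what can be said of ABCA1 and ABCG1.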
